A study of Mus musculus with 6 samples.

Results

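The genes described here encode transporters of 2 families that carry organic ions from the blood into hepatocytes and other cells: Slco1a1, Slco1a4, Slco1b2, Slco2a1 and Slco2b1 of the organic anion transporting polypeptides, and Slc22a3, Slc22a7, Slc22a18 and Slc22a30 of the organic cation and anion transporters. They are 9 of 12366 genes in the deposited table, found by gene symbol, and the table holds 18 Slco and Slc22 genes. Liver RNA was sequenced from male C57BL/6 mice on chow at 22 weeks of age after a 48-h fast, in 3 libraries from wild-type mice (WT) and 3 from Acss2-/- mice (Acss2-KO). Acss2 encodes the enzyme that makes acetyl-CoA from acetate outside mitochondria. The labels give neither the construct nor the cells of the deletion. They number the libraries as replicates without naming animals, and the p-values therefore describe scatter among libraries, which can be technical.

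Transporters of the Slco family (OATP proteins) exchange organic anions such as bile acids, bilirubin, steroid conjugates, thyroid hormones and many drugs across the plasma membrane, and in the liver several of them sit in the sinusoidal membrane of hepatocytes, facing the blood. The Slc22 family holds the organic cation transporters (OCT) and the organic anion transporters (OAT), which take up monoamines, vitamins, drugs and toxins. Substances taken up in this way are metabolised in the hepatocyte and leave it through ABC transporters, into bile or back to blood. Hepatic nuclear receptors and growth hormone signalling through STAT5 are known to set the levels of several of these genes.

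Values are read counts scaled to the library total (CPM), estimated depth was between 21.8 and 30.8 M reads per library, and 5 CPM corresponded to 109 to 154 reads. Acss2 itself ranged from 73.5 to 81.0 CPM in WT and from 1.37 to 3.56 CPM in Acss2-KO. Acss2-KO replicate 2 lay closest to WT on the leading principal component of all tested genes (score 16.9, against 62.4 and 44.0 for Acss2-KO replicates 1 and 3 and -45.6 to -38.0 for WT). Macrophage markers were highest in WT replicate 2 (summed level 718 CPM). The 9355 genes that averaged 5 CPM or more, all 9 transporters among them, were compared with limma on log2(CPM + 1). Of these, 36.5% passed an adjusted p of 0.05, 13.4% higher and 23.1% lower in Acss2-KO.

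Of the 9 transporters, 7 were lower and 2 higher in Acss2-KO. Slco1b2, Slco1a1, Slc22a7 and Slc22a30 had log2 fold changes of -2.9 or below on the log2(CPM + 1) scale, as did 0.706% of all tested genes. Slc22a18, Slco2b1 and Slc22a3 fell by 1.08, 0.99 and 0.95. Slco1a4 and Slco2a1 rose by 0.86 and 0.65. The genotypes did not overlap for 8 of the 9 genes, 6 of them lower and 2 higher, and Slco2b1 was the exception. Among all tested genes 52.9% did not overlap, 32.8% lower and 20.1% higher. The genes were chosen with earlier results of these data known, so the 9 calls of 9 are a description and no evidence about the families. Slc22a7 and Slc22a30 were below 5 CPM in the Acss2-KO mean and passed the filter on low values through the WT libraries. The comparison gives the level of transcripts in whole liver, in which fewer cells of a type and less RNA per cell cannot be told apart.

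**Figure D1:**
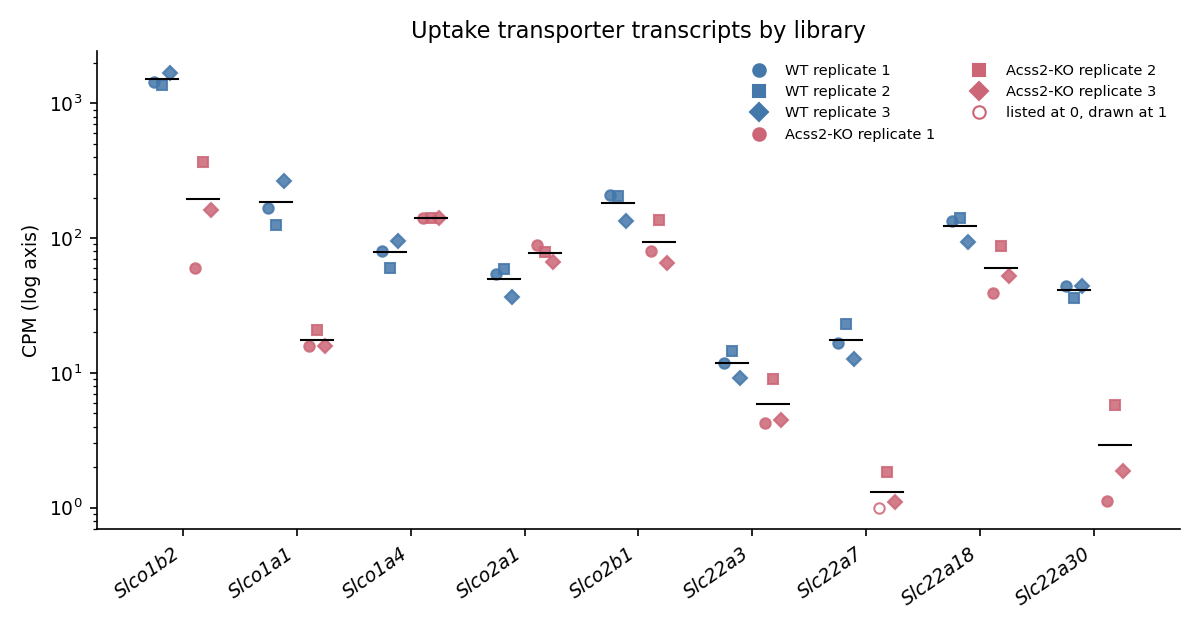
Level of each of the 9 transporter genes in every library, in CPM on a log axis, with WT in blue, Acss2-KO in red, a marker shape for each replicate and a black line at the group mean. The Acss2-KO points of Slco1b2, Slco1a1, Slc22a7 and Slc22a30 lie well below the WT points, those of Slco1a4 lie above them, and Acss2-KO replicate 2 (squares) is the red point nearest to WT in 8 of the 9 genes. The value of Slc22a7 in Acss2-KO replicate 1 is listed at 0 and drawn at 1 CPM.

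Slco1b2, Slco1a4 and Slco1a1 lie in that order on chromosome 6 (coordinates of the deposited table, taken as GRCm38). Between the first pair are 118.8 kb and between the second 51.1 kb. The noncoding RNA gene RP24-309B5.2, under the filter on low values, lies between Slco1a4 and Slco1a1. The bases before the RefSeq starts of the 3 transporter genes are shown because these genes lie close together and were measured at changed levels. Each run covers the 250 bases before the start, read 5′ to 3′ on the gene's strand, at chr6:141629268-141629517 (plus strand) for Slco1b2, chr6:141856221-141856470 (minus strand) for Slco1a4 and chr6:141946963-141947212 (minus strand) for Slco1a1, in GRCm38.p6. Capitals mark matches, on either strand, to an HNF1 core (GTTAAT), a nuclear receptor hexamer (AGGTCA), a STAT5 site (TTCNNNGAA), a forkhead site (TGTTTAC) or a TATA box (TATAAA).
Slco1b2: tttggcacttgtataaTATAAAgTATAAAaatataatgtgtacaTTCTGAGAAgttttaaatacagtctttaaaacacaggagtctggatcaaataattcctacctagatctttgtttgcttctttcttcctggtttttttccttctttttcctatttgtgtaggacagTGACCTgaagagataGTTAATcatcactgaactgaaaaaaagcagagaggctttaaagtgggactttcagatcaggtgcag
Slco1a4: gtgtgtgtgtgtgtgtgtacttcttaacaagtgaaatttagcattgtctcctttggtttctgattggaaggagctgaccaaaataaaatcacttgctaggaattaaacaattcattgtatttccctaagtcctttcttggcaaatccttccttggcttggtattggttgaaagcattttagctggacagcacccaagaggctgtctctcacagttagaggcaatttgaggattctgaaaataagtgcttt
Slco1a1: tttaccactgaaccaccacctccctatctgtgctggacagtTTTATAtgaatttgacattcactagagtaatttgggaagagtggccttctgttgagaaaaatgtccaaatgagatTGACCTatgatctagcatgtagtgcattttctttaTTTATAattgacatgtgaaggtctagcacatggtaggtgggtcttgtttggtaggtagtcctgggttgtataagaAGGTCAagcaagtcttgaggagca
The Slco1b2 run held 5 matches to 4 motifs: the HNF1 core at -66 to -61, the hexamer on the other strand at -81 to -76, the STAT5 site at -206 to -198 and the TATA box at -234 to -229 and -227 to -222, counted back from -1 at the base before the start. The Slco1a1 run held the hexamer at -24 to -19 and, on the other strand, at -134 to -129, and the TATA box on the other strand at -209 to -204 and -99 to -94. None of the 5 motifs was found in the Slco1a4 run, and none in the windows of Slc22a3, Slc22a18 and Slc22a30, which fell. Of 3 Slco2b1 windows 1 held a STAT5 site, and the window of Slco2a1, which rose, held a TATA box at -29 to -24. Both of these windows, chr7:99695810-99696059 for Slco2b1 and chr9:103008237-103008486 for Slco2a1, lie before RefSeq starts inside the gene spans of the deposited table. Windows without a match belonged to genes that fell and to one that rose. Among 32851 RefSeq promoter windows of the same length, 6.4% held the HNF1 core, 14% the nuclear receptor hexamer, 7.0% the STAT5 site, 3.2% the forkhead site and 12.4% the TATA box. A match is a run of letters and was not tested as a binding site. Of the 9 genes, 8 had a window in the RefSeq table.

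Slco1b2 (ENSMUSG00000030236, chromosome 6, 141629518 to 141686646) encodes OATP1B2, an uptake transporter of bile acids, bilirubin and drugs that is found almost only in hepatocytes. WT replicates 1 to 3 held 1448, 1380 and 1698 CPM, and Acss2-KO replicates 1 to 3 held 60.6, 367 and 161 CPM. Every Acss2-KO library was far below every WT library, and within Acss2-KO the replicates differed more than within WT. From a WT mean of 1509 ± 168 CPM (SD, n = 3), the level dropped to 196 ± 156 CPM (SD, n = 3). The difference of the mean log2(CPM + 1) values, which weighs low libraries more than the means in CPM do, was -3.29 (SE 0.59, adjusted p = 0.0072 by limma). The size of the fall depended on the Acss2-KO library: it was -2.62 without replicate 1 and -3.91 without replicate 2. The call held in both cases (limma adjusted p = 0.0018 and 0.00018). It held less firmly without WT replicate 1, 2 or 3 (limma adjusted p = 0.035, 0.037 and 0.028) or Acss2-KO replicate 3 (0.029).

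Slco1a1 (ENSMUSG00000041698, chromosome 6, 141907282 to 141946962) encodes OATP1A1, a sinusoidal transporter of steroid conjugates and other anions whose level in mouse liver is higher in males. Its levels were 169, 125 and 265 CPM in WT and 15.8, 20.97 and 15.9 CPM in Acss2-KO. The lowest WT library was several times above the highest Acss2-KO library, and the Acss2-KO replicates lay close together. The fold change of -3.28 (SE 0.27, limma adjusted p = 0.00023) held its call in each of 16 alternative analyses, with values between -3.53 and -2.99.

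Slco1a4 (ENSMUSG00000030237, chromosome 6, 141805440 to 141856199) encodes OATP1A4, which takes up the cardiac glycoside digoxin and is known as a target of the xenobiotic receptor PXR. Unlike Slco1b2 and Slco1a1 it rose, from 80.5, 60.6 and 95.7 CPM in WT to 142, 141 and 142 CPM in Acss2-KO. All Acss2-KO libraries were above all WT libraries and nearly equal to each other. The rise was 1.82-fold (0.86 on the log2 scale, SE 0.20, adjusted p = 0.011 by limma). The call held narrowly without WT replicate 2 alone (0.69, limma adjusted p = 0.05 after rounding) or Acss2-KO replicate 3 alone (0.86, 0.049). It was lost when the pair of WT replicate 2 and Acss2-KO replicate 1 was dropped (0.68, limma adjusted p = 0.082). Of all tested genes, 13.4% were called higher.

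Within a library, the log2 ratio of Slco1a1 to Slco1a4 was 1.06, 1.04 and 1.46 in WT and -3.09, -2.69 and -3.08 in Acss2-KO. It thus changed sign in each Acss2-KO library. Its shift of -4.14 had an exact permutation p of 0.1 (two-sided), the smallest that 3 libraries against 3 can give. The log2 ratio of Slco1a1 to Slco1b2, which both fell, was -3.07 ± 0.39 (SD, n = 3) in WT and -3.07 ± 1.11 (SD, n = 3) in Acss2-KO, with the Acss2-KO replicates spread from -4.07 to -1.87. Of 16 such ratios between members of a family, 12 did not overlap between the genotypes, 8 of 10 in Slco and 4 of 6 in Slc22, while 54.6% of all pairs of tested genes did not overlap. The pairs share genes, and the smallest adjusted p of the exact permutation tests was 0.125 within Slco and 0.15 within Slc22.

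Slco2b1 (ENSMUSG00000030737, chromosome 7, 99657804 to 99711340) encodes OATP2B1, a widely expressed transporter of steroid sulphates and drugs that is found in hepatocytes and also in cells of the macrophage lineage. Its levels were 208, 205 and 134 CPM in WT and 79.9, 137 and 65.3 CPM in Acss2-KO. Acss2-KO replicate 2 lay just above WT replicate 3, so that the groups overlapped. The log2 fold change was -0.99 (SE 0.30, limma adjusted p = 0.03). It did not pass with single libraries left out, namely WT replicates 1 (limma adjusted p = 0.093) and 2 (0.087) and Acss2-KO replicates 1 (0.077) and 3 (0.12). Beside it, 4 of 11 tested macrophage markers fell and none rose. Their summed level, over 12 markers, was 244 to 718 CPM in WT and 139 to 216 CPM in Acss2-KO, none of the 12 was at 0 in all libraries of a genotype, and their part in the Slco2b1 value was not tested.

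Slco2a1 (ENSMUSG00000032548, chromosome 9, 102988712 to 103096002) encodes the prostaglandin transporter, which clears prostaglandins from outside the cell and is known from endothelial cells. It stood at 54.6, 59.3 and 36.8 CPM in WT and at 88.7, 79.3 and 66.7 CPM in Acss2-KO. The groups did not overlap, though the lowest Acss2-KO library was close to the highest WT library. The rise was 1.57-fold (0.65 on the log2 scale, SE 0.22, adjusted p = 0.044 by limma). The call was lost without any one of 5 libraries, all but WT replicate 2, with limma adjusted p between 0.07 and 0.12, and without robust weighting (0.05 after rounding). Of 16 tested endothelial markers 2 rose and 2 fell, and the summed level of 17 such markers was 526 to 809 CPM in WT and 630 to 828 CPM in Acss2-KO, with none at 0 in all libraries of a genotype. Lyve1, a hyaluronan receptor of lymphatic and sinusoidal endothelium, rose (log2 fold change 2.55, SE 0.39), and Clec4g, a sinusoidal endothelial lectin, fell (-1.01, SE 0.22). The part of endothelial cells in the Slco2a1 value was not tested. Of 6 tested genes of prostaglandin metabolism, 2 fell and none rose: Hpgd, which inactivates prostaglandins inside the cell (-2.17, SE 0.18), and Ptgr2, which reduces their 15-keto products (-1.04, SE 0.27).

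Among the Slc22 genes, Slc22a7 (ENSMUSG00000067144, chromosome 17, 46432185 to 46438477) encodes OAT2, an organic anion transporter of hepatocytes and kidney. It held 16.7, 23.3 and 12.6 CPM in WT, was listed at 0 (below 1 CPM) in Acss2-KO replicate 1 and stood at 1.83 and 1.10 CPM in the other Acss2-KO libraries. WT values were low and Acss2-KO values were at the floor of the table, so the gene passed the filter on low values through the WT libraries. With the listed 0 set to 1 CPM, the log2 fold change was -2.98 (SE 0.25, limma adjusted p = 0.00025). It was -1.81 with a pseudocount of 5 and -3.30 with 0.5, and the call held in 15 of 15 alternatives.

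Slc22a30 (ENSMUSG00000052562, chromosome 19, 8335371 to 8405111) belongs to the organic anion transporter branch of the family, in a cluster of related genes on chromosome 19. Its levels were 44.0, 35.8 and 44.0 CPM in WT and 1.12, 5.74 and 1.88 CPM in Acss2-KO. The groups lay far apart, and the Acss2-KO values differed among themselves, with replicate 2 highest and replicate 1 lowest. The same order was seen for Slco1b2 and Slc22a18. Replicate 2 was also highest for Slco1a1, Slc22a3 and Slc22a7, where replicates 1 and 3 hardly differed. Their values were 15.78 and 15.89 CPM for Slco1a1, 4.26 and 4.44 for Slc22a3, and 0 as listed and 1.10 for Slc22a7. For Slco2b1, which also fell, replicate 3 was lowest (65.3 CPM, against 79.9 in replicate 1). On the leading principal component of all tested genes, Acss2-KO replicate 2 also lay closest to WT and replicate 1 farthest. The log2 fold change of -3.61 (SE 0.39, limma adjusted p = 0.00086) came with an Acss2-KO mean of 2.91 ± 2.48 CPM (SD, n = 3), under the 5 CPM of the filter, which the gene passed through the WT libraries. It was -4.09 without Acss2-KO replicate 2 and -2.59 with a pseudocount of 5. Related genes of the cluster can share reads, and the authors' rule for such reads is not known here.

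Slc22a18 (ENSMUSG00000000154, chromosome 7, 143473736 to 143499334) encodes an organic cation transporter-like protein in the imprinted region of distal chromosome 7. Its levels were 133, 141 and 93.7 CPM in WT and 39.1, 87.4 and 52.7 CPM in Acss2-KO. WT replicate 3 and Acss2-KO replicate 2 were close to each other, and the groups did not overlap. The log2 fold change was -1.08 (SE 0.30, limma adjusted p = 0.021), and leaving out any of 4 single libraries ended the call: WT replicates 1 and 2 (limma adjusted p = 0.067 each) and Acss2-KO replicates 1 (0.058) and 3 (0.076).

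Slc22a3 (ENSMUSG00000023828, chromosome 17, 12419972 to 12507704) encodes OCT3, a transporter of monoamines and other organic cations. It stood at 11.9, 14.5 and 9.19 CPM in WT and at 4.26, 8.94 and 4.44 CPM in Acss2-KO. Acss2-KO replicate 2 nearly reached WT replicate 3. The log2 fold change was -0.95 (SE 0.28, limma adjusted p = 0.028). Quantile scaling ended the call (limma adjusted p = 0.069), and so did leaving out, one at a time, WT replicates 1 (0.073) and 2 (0.086) or Acss2-KO replicates 1 (0.078) and 3 (0.1). The log2 ratio of Slc22a3 to Slc22a18 was -3.26 ± 0.10 (SD, n = 3) in WT and -3.13 ± 0.19 (SD, n = 3) in Acss2-KO, with overlap between the genotypes (exact permutation p = 0.4).

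**Figure D2:**
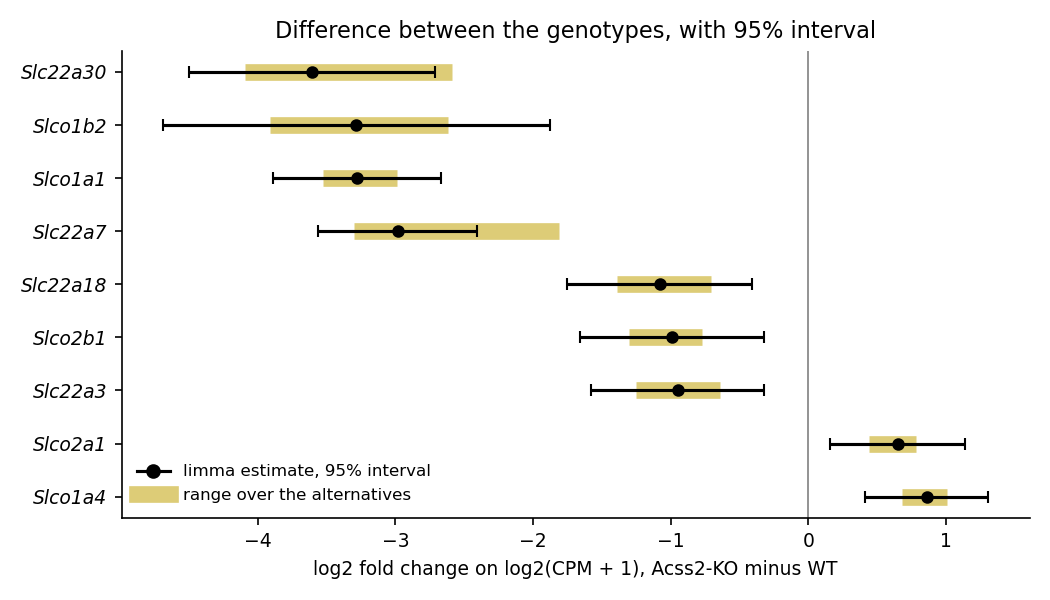
Log2 fold change of each transporter gene between Acss2-KO and WT on the log2(CPM + 1) scale, with the limma estimate and its 95% interval in black and the range over the alternative analyses in yellow. The intervals of Slc22a30, Slco1b2, Slco1a1 and Slc22a7 reach no higher than -1.88 and those of the others that fell reach up to -0.32, while Slco1a4 (0.41 to 1.31) and Slco2a1 (0.16 to 1.14) lie above 0.

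In the authors' deposited table all 9 genes have the same sign as here, and 5 of them are past an adjusted p of 0.05. Past this value, 14.7% of all genes there are lower and 12.5% higher. The 4 others are Slc22a18 (0.055), Slc22a3 (0.073), Slco2a1 (0.084) and Slco2b1 (0.087) by the adjusted p of the authors' deposited table. These are the genes whose calls here were lost without single libraries. Acss2-KO replicate 2 was the library nearest to the WT mean for 8 of the 9 transporters, and for 78.0% of the 3413 genes called in the whole table.

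Levels of different genes were compared per kb of merged exon (GENCODE vM1 lengths). In WT, Slco1b2 was highest at 306 ± 34.1 CPM per kb (SD, n = 3), and Slc22a18 followed at 71.4 ± 14.8. Slco1a1 (35.3 ± 13.5), Slco2b1 (32.5 ± 7.43) and Slco1a4 (20.5 ± 4.57) came next, and neighbours in this order overlapped. Slco2a1, Slc22a30 and Slc22a7 followed at 12.4, 12.3 and 8.64 CPM per kb, again overlapping from each to the next, and Slc22a3 was lowest at 3.39. In Acss2-KO the mean order was led by Slco1b2 (39.8 ± 31.7), Slco1a4 (36.8 ± 0.147) and Slc22a18 (34.8 ± 14.5), whose ranges overlapped from each to the next. Slco1a1 had moved from the third to the sixth place (3.33 ± 0.562 CPM per kb), and Slc22a7 was last (0.646 ± 0.223).

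The makeup of the 9 transcripts per kb differed accordingly. Slco1b2 made up 58.8%, 58.4% and 65.1% of their summed level in the WT libraries and 10.9%, 34.6% and 24.4% in the Acss2-KO libraries. Slco1a4 made up 4.2%, 3.3% and 4.7% in WT and 32.6%, 17.0% and 27.6% in Acss2-KO. Shares of the other rising gene, Slco2a1, were between 1.7% and 3.1% in WT and between 9.1% and 19.4% in Acss2-KO. A share also grows when other members fall, so these values describe the mixture and not each gene.

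**Figure D3:**
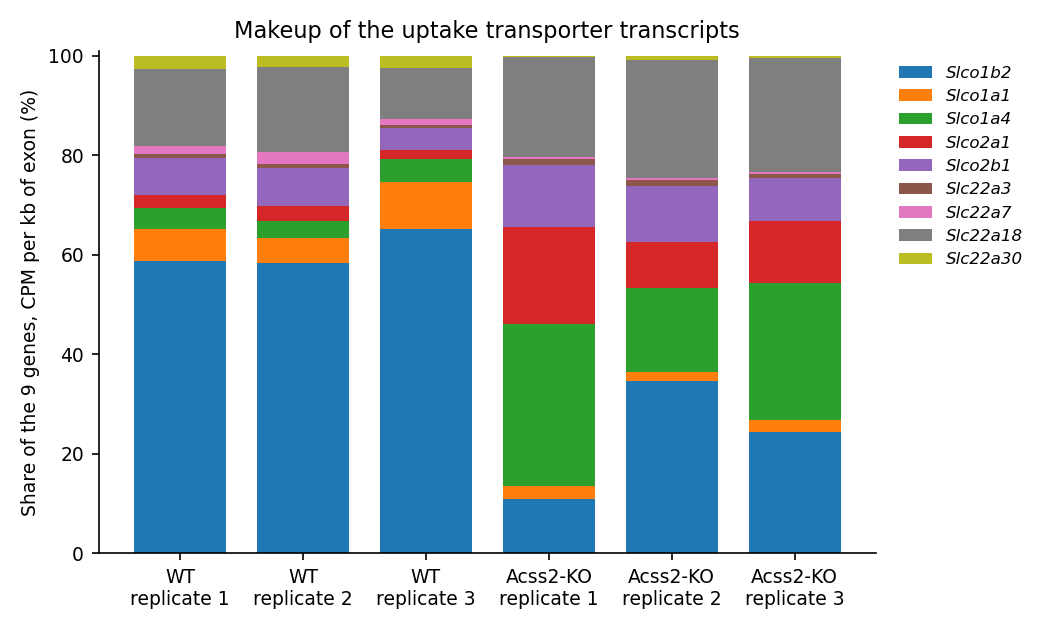
Share of each gene in the summed level of the 9 transporter genes, in percent of CPM per kb of merged exon, with 1 bar for each library. Slco1b2 (blue, at the base) fills 58.4% to 65.1% of the WT bars and 10.9% to 34.6% of the Acss2-KO bars, and Slco1a4 (green) fills 17.0% to 32.6% of the Acss2-KO bars.

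The table holds 9 further genes of these families, of which 4 reached the filter on low values, and 2 of these were lower and none higher. Slc22a5, the carnitine transporter OCTN2, was at 82.7 ± 9.24 and 126 ± 32.9 CPM (SD, n = 3 each) and did not pass (limma adjusted p = 0.074). Slc22a23 did not pass either (-0.54, SE 0.29). In a window of 200 kb around the 9 genes, 24 other genes were tested. Of these, 7 fell (29.2%) and none rose, against 23.1% lower and 13.4% higher among all tested genes. Plg, the plasminogen gene 0.6 kb from Slc22a3, was not among the 7 (-0.17, SE 0.22).

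Other transporters and enzymes on the path through the hepatocyte were counted in lists, read against 23.1% lower and 13.4% higher among all tested genes and a median log2 fold change of -0.12. Of 9 tested carriers of bile acids and other organic ions outside the families, 6 fell and none rose (median -1.30). Slc10a1, the sodium-dependent bile acid transporter NTCP, went from 898 ± 10.7 to 536 ± 194 CPM (SD, n = 3 each), a difference of -0.80 on the log2 scale (SE 0.26, adjusted p = 0.039 by limma). Among those that fell were Slc17a2, by 1.56 (SE 0.21), and Slc17a4, by 1.30 (SE 0.29). Of 9 tested exporters, 7 fell and none rose (median -1.01), among them Abcb11, the bile salt export pump (276 ± 81.2 to 81.7 ± 62.1 CPM, SD, n = 3 each), the sterol exporter gene Abcg5 (-1.25, SE 0.23), the flippase gene Atp8b1 (-1.39, SE 0.29) and Abcg2 (-1.01, SE 0.23). In bile acid synthesis 4 of 10 genes fell and none rose, with Cyp7a1, Amacr and Cyp2c70 at -4.35, -0.92 and -1.33.

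Of 19 tested transcription factors and receptors known to act on such genes, 12 fell and none rose (median -0.73). The forkhead factor gene Foxa3 (-1.73, SE 0.16), the growth hormone receptor gene Ghr (-2.62, SE 0.30) and Nr0b2, the repressor SHP (-3.43, SE 0.42), had the smallest p. The bile acid receptor gene Nr1h4 (-0.95, SE 0.25), the xenobiotic receptor gene Nr1i3, which encodes CAR (-0.64, SE 0.21), and Stat5b (-0.73, SE 0.19) also fell. Nr1i2, which encodes PXR, did not pass (-0.37, SE 0.23, limma adjusted p = 0.24). Of 14 tested targets of CAR and PXR other than Slco1a4, 4 rose and 5 fell (median -0.53). Cyp2b10 (4.53, SE 0.63) and Gadd45b (2.24, SE 0.29) rose, while Cyp2c29 fell (-1.92, SE 0.34).

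Slco1a1 is male-biased in mouse liver. Of 10 other tested male-biased genes 5 fell and 1 rose (median -0.70), among them Nudt7 (-1.31, SE 0.27) and Serpina12 (-1.63, SE 0.33), and the gene that rose was Cyp2d9 (0.77, SE 0.23), chosen after its value was seen. Of 5 tested female-biased genes 4 rose and 1 fell. Fmo2 (1.81, SE 0.24), Cyp17a1 (2.22, SE 0.35) and Cux2 (1.30, SE 0.27) were among those that rose, and Cyp2b9 was listed at 0 in each Acss2-KO library. Cux2 was likewise named after its value was seen.

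**Figure D4:**
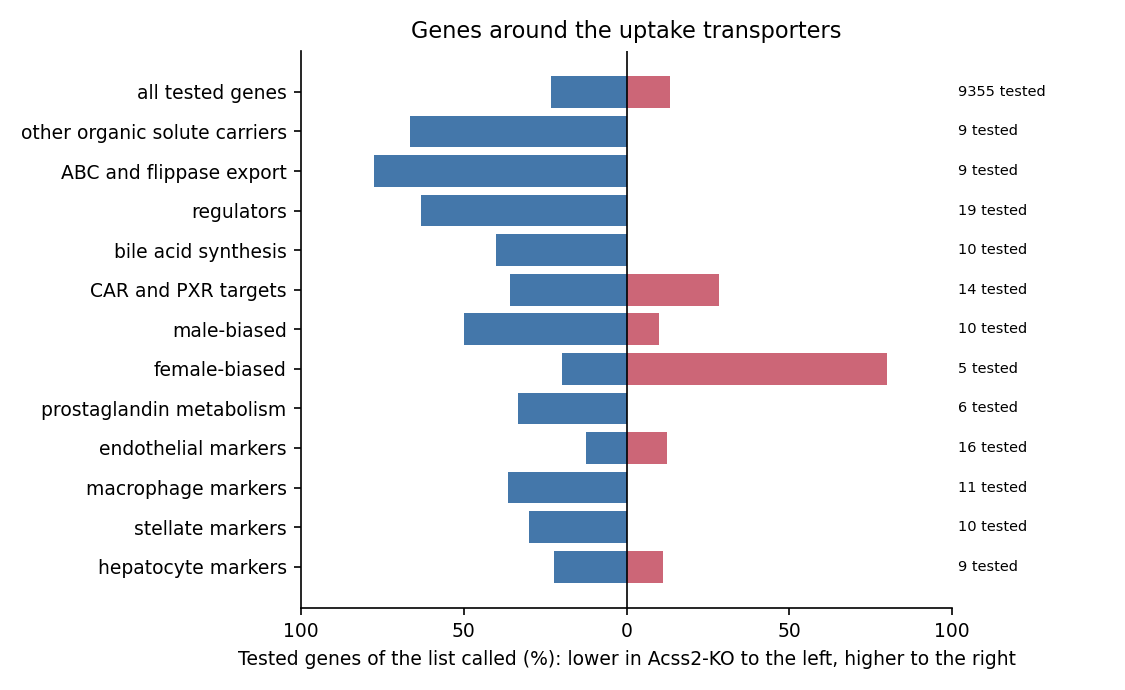
Percent of the tested genes of each list that were called lower (blue, to the left) or higher (red, to the right) in Acss2-KO at a limma adjusted p of 0.05, with the number tested at the right. Exporters, other organic solute carriers and regulators show calls only to the left. So do bile acid synthesis, prostaglandin metabolism, macrophage markers and stellate markers. Female-biased genes show calls mostly to the right, and all tested genes 23.1% lower and 13.4% higher.

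Markers of the liver's cell types were checked beside the transporters. Hepatocyte markers were high in every library, with summed levels of 102184 to 122698 CPM in WT and 122389 to 131707 CPM in Acss2-KO. Alb was the largest term of the sum (means of 69738 and 79085 CPM). Of the 9 genes, Cps1 rose (log2 fold change 2.23, SE 0.21), and Ttr (-1.80, SE 0.24) and Hpx (-0.84, SE 0.22) fell. The transferrin gene was listed as Tf and so not counted. Under its symbol Trf it fell (-1.15, SE 0.19, limma adjusted p = 0.0035). Stellate cell markers counted 3 lower and none higher of 10 tested, with sums of 469 to 639 CPM in WT and 393 to 592 CPM in Acss2-KO. Of 3 cholangiocyte markers that were measured, 1 rose and 1 fell, with sums of 45.0 to 53.4 CPM in WT and 31.4 to 34.6 CPM in Acss2-KO. Both measured lymphocyte markers were under the filter and listed at 0 in each Acss2-KO library. The part of these cell types in the transporter values was not tested.

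The genes with the most similar pattern over the 6 libraries were found by the root mean square difference of mean-centred log2(CPM + 1) values. The search covered the tested genes except gene models with Gm or Rik names. Sult2a8, a sulphotransferase gene (882 ± 200 and 92.8 ± 67.2 CPM, SD, n = 3 each), was nearest to both Slco1b2 and Slc22a30, at 0.21 in each case. Srd5a1, a steroid 5α-reductase gene, was also at 0.21 from Slco1b2, and Sdr9c7 was at 0.22 from Slc22a30. Nearest to Slco1a1 was the sterol carrier gene Stard4 (0.28), to Slco1a4 BC005561 and Cdip1 (0.10 each), and to Slc22a7 the glycogen-targeting subunit gene Ppp1r3c (0.17). Nearest to Slco2b1 was Acaca, which encodes acetyl-CoA carboxylase (0.12), and to Slc22a18 Agk (0.06). With 6 libraries in 2 genotypes and so many tested genes to choose from, such likeness is a description of these libraries.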

How the data were processed

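Liver RNA of 6 libraries (3 WT, 3 Acss2-KO) was read from 1 deposited table of 12366 genes, with 1 column per library. The authors deposited log2 CPM, rounded, and anything under 1 CPM appears as 0. The unit follows from the values, which sum to between 997061 and 997856 CPM per library. Low values lie on steps of 1 read, from which depth was estimated (21.8 to 30.8 M reads). The log2 fold changes and p-values that the authors deposited are named as theirs. The submitters' processing notes list Bowtie 0.12.2 and mm8, without saying for what, while the coordinates fit GRCm38 (gene starts a median of 8 bp from RefSeq GRCm38.p6 for 11623 genes). Not given in the sources used here are the counter, its strand setting and its treatment of multiply matching reads.

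A listed 0 was set to 1 CPM. Genes averaging 5 CPM or more were tested on log2(CPM + 1), which understates the change of low genes, with limma 3.58.1 in R 4.3.3 (trend, robust, statmod 1.5.0), without covariates or further scaling, with Benjamini-Hochberg adjustment over 9355 genes and a threshold of 0.05. The design named a count test for counts and limma otherwise, and whole reads were not recovered from rounded log values. Ratios of members were compared by exact permutation tests (scipy 1.17.1). The procedure was tested on simulated data, with scatter taken from the WT libraries and far fewer changed genes than were called here. The simulation therefore does not cover wider scatter within Acss2-KO, as seen for Slco1b2, or a change of so many genes. Merged exon lengths came from GENCODE vM1 and promoter windows from RefSeq GRCm38.p6. Named were the 9 transporters, the 2 genes most like each, tested neighbours, a few fixed genes and up to 3 genes with the smallest p per list. The transporters and the lists were chosen with earlier results of these data known. Alternatives were 2 pseudocounts, 3 scalings, 2 filters, each library left out, WT replicate 2 and Acss2-KO replicate 1 left out together, the replicate number as a block, and no robust weighting. Some genes that the naming rule chose are not reported here.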

Additional observations from a re-analysis of the deposited data

How the results depend on the processing

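Over 142 recomputed values of the 9 transporters, no direction turned, 118 stayed past the threshold and 24 did not, the latter in Slco1a4, Slco2a1, Slco2b1, Slc22a3 and Slc22a18. The numbers of transporters called higher and lower, 2 and 7, were 1 and 7 without robust weighting and 0 and 4 when WT replicate 2 was left out together with Acss2-KO replicate 1. Leaving out 1 library at a time gave 1 to 2 higher and 4 to 7 lower. With a mean of at least 20 CPM, Slc22a3 and Slc22a7 were not tested and 5 were lower. Over all tested genes, the counts of 1252 higher and 2161 lower were 741 and 1112 with a mean of at least 20 CPM (fewer genes tested), 715 and 1319 with both libraries left out (fewer samples), and ranged from 519 to 1608 and from 1239 to 2420 with 1 library left out. The share of higher calls was 36.7%, and 48.9%, 48.4% and 52.5% with median-of-ratios, trimmed-mean and quantile scaling, which move the median log2 fold change of all genes from -0.12 to between -0.02 and 0.02. Of the 16 ratios, 12 to 13 did not overlap with either other pseudocount or with 1 library left out, the alternatives run for them. Libraries with the same replicate number did not deviate together (r of -0.10, -0.14 and 0.09), so the numbers were not taken as pairs. With the replicate number as a block, 2 transporters were higher and 7 lower, and 1260 genes were higher and 2137 lower. Values near 1 CPM lie at the floor of the table, which limits the folds of Slc22a7 and Slc22a30.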
